A study of Mus musculus with 10 samples.

Results

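Superoxide dismutases, catalase and glutathione peroxidases are the enzymes that remove superoxide, hydrogen peroxide and lipid peroxides. Their transcripts were measured in the hippocampus of aged mice through every probe set that the platform annotation assigns to Sod1, Sod2, Sod3, Cat, Gpx1, Gpx3 or Gpx4 and to no other gene. A probe set is a group of short probes for 1 transcript, and 8 of the 12422 gene probe sets met this rule, for 7 of 8251 genes. Cat had 2 of them, each other gene had 1, and no probe set with several gene symbols included any of the 7 genes. The animals were male C57BL/6 mice aged 30 months, 5 on a long-term calorie restricted diet and 5 on a control diet. The labels state neither how strong and how long the restriction was nor how control mice were fed. Total RNA of 1 hippocampus sample per mouse was measured on 1 Affymetrix array, so each value below is 1 mouse. Because whole tissue was used, fewer cells of a type and less RNA per cell cannot be told apart.

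Superoxide is turned into hydrogen peroxide by 3 dismutases that work in different places: SOD1, the copper and zinc enzyme of the cytosol, SOD2, the manganese enzyme of the mitochondrial matrix, and SOD3, a secreted copper and zinc enzyme of the extracellular matrix. Catalase, a haem enzyme of peroxisomes, breaks down hydrogen peroxide directly. Glutathione peroxidases use glutathione instead: GPX1 in the cytosol and mitochondria, GPX3 in plasma and extracellular fluid, and GPX4 on lipid peroxides in membranes. These glutathione peroxidases carry selenocysteine in the active site.

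Signals are linear intensities scaled by the authors to a common level on each array. All 8 probe sets passed the filter on low signal, which kept 7453 probe sets with a mean log2 signal of at least 6.85. Each change is a log2 difference, calorie restricted minus control, with its standard error (SE) from limma. The median over the tested probe sets, -0.15, was subtracted from it. The p-values test the change before that subtraction and are adjusted over all 7453 probe sets, with 0.05 as the threshold.

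RNA quality and array signal differed between the diets, and their part in the changes below was not tested. The arrays read Gapdh and Actb near both transcript ends, and a gap between the ends widens as RNA becomes shorter. The log2 signal at the 3' end exceeded that at the 5' end by a mean of 2.88 ± 2.57 on calorie restricted arrays, against 0.16 ± 0.24 on control arrays (SD, n = 5 each). An exact two-sided permutation test gave p = 0.00794, the smallest possible. Calorie restricted replicates 5 and 3 stood apart at 6.11 and 5.20, against 0.78 to 1.52 on the other calorie restricted arrays. Bacterial spike-in signal was 3.79-fold higher in calorie restricted mice, and the median log2 signal of the array was 7.49 ± 0.18 on calorie restricted arrays, against 7.84 ± 0.05 on control arrays, each without overlap (exact permutation p = 0.00794 each; adjusted p = 0.00794 over the 3 measures). Bright probe sets also moved upward relative to dim ones: the median relative change was 0.28 in the brightest of 5 equal groups of probe sets and -0.26 in the dimmest. Of 11 hippocampal neuron markers on the array, 10 passed the filter, while Prox1, a transcription factor of dentate granule cells, lay below it.

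Sod1 was higher in calorie restricted mice, and Sod3 and Gpx1 were lower. The other 5 probe sets, of Sod2, Cat, Gpx3 and Gpx4, did not pass. Calls covered 3 of 8 probe sets, 1 higher and 2 lower, where 11.8% of all tested probe sets passed, 4.11% higher and 7.74% lower. Signals did not overlap between the diets for 4 of 8 probe sets, 1 higher and 3 lower, against 14.3% of all tested, 4.96% higher and 9.35% lower. The median relative change of the 8 was -0.46, against 0 over all tested by construction, and their median absolute change was 0.56 against 0.41. In relative terms Sod1 and Sod2 lay above 0 and the other 6 probe sets below it.

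**Figure D1:**
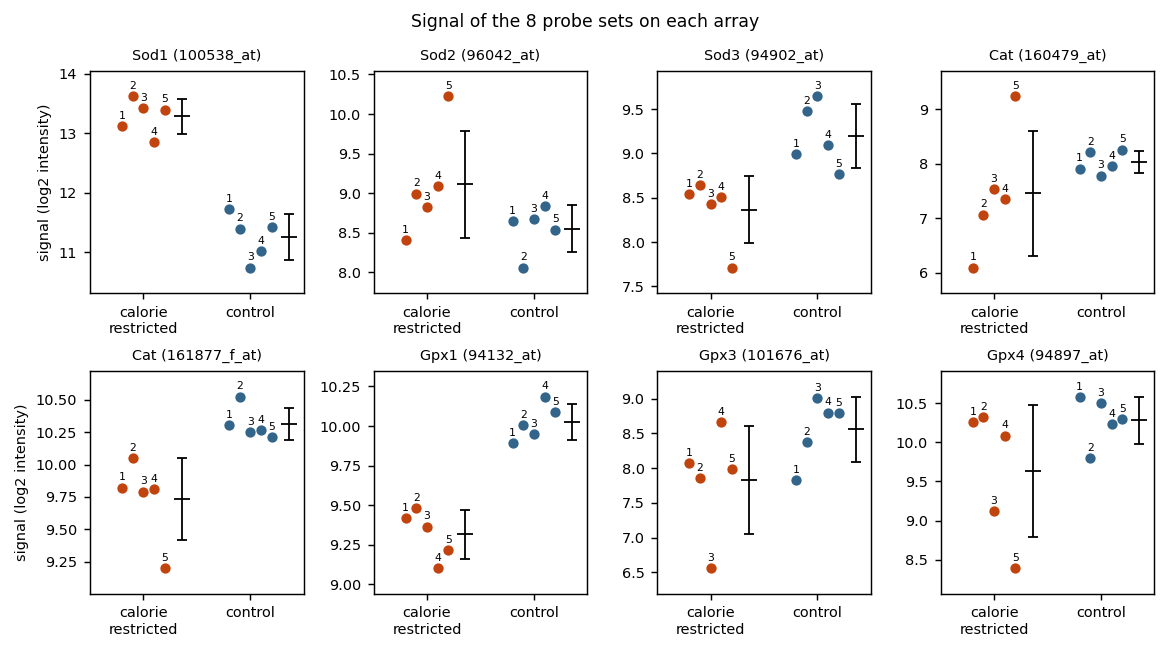
Log2 signal of each of the 8 probe sets on each array, with calorie restricted mice on the left and control mice on the right. Points carry the replicate number, and bars beside them show the mean and SD of 5 mice. The diets do not overlap for Sod1, Sod3, Gpx1 and the second Cat probe set, and calorie restricted replicate 5 lies far from its group for Sod2, Sod3 and the first Cat probe set.

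The start regions of Sod1 and Gpx1 are shown because these genes moved in opposite directions with the smallest p-values of the 7. They are the RefSeq promoter windows, 250 bases before to 50 after the start, in build GRCm38.p6 and read along the gene. Both genes lie on the plus strand, Sod1 at chr16:90220512-90220811 and Gpx1 at chr9:108338830-108339129. Capitals mark the core of the antioxidant response element, TGACNNNGC, and the GC box, GGGCGG, searched on both strands.
Sod1: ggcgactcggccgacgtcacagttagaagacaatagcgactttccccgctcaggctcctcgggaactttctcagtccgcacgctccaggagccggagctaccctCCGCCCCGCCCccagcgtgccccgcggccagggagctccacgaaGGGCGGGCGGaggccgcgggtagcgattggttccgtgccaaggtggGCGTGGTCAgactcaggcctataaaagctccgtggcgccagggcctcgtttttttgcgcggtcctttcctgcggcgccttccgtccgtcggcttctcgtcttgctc
Gpx1: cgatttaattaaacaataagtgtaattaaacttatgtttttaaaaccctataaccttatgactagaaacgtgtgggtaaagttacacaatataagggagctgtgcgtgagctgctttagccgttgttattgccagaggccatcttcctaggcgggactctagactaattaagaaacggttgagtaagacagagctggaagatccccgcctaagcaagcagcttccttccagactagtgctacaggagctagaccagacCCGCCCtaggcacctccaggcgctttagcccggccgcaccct

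The Sod1 window held 1 match to the antioxidant response element core, on the minus strand, where NRF2, the main activator of antioxidant genes, is known to bind such elements. It also held 4 GC box matches, in overlapping pairs on either strand, while the Gpx1 window held 1 and no antioxidant response element core. Among all 32851 mouse windows of 300 bases, 12.4% held the antioxidant response element core and 35.7% held a GC box. In the windows of Sod2, Cat, Gpx3 and Gpx4 the antioxidant response element core had 0 matches. The Sod2 window also held 4 GC box matches, those of Cat and Gpx3 held 1 each, and those of Gpx4 held 0 to 2. Of the 7 genes 6 were matched to the table, Sod3 being the exception. A match describes these letters and was not related to the measured change.

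Sod1 encodes the most widely expressed dismutase, the one that acts in the cytosol. Its signal was 8925, 12607, 10966, 7365 and 10809 in calorie restricted replicates 1 to 5, against 3394, 2693, 1708, 2063 and 2744 in control replicates 1 to 5. Even the lowest calorie restricted array exceeded the highest control array, and calorie restricted replicates 3 and 5 lay within the range of the other 3. The calorie restricted mean was 10134 ± 2024, against a control mean of 2520 ± 654 (SD, n = 5 each). The log2 change was 2.18 ± 0.22 (SE), or 4.52-fold relative to the median change, with a 95% interval of 1.71 to 2.65 and a limma adjusted p of 0.00132. Its p ranked 3 among the 7453 tested probe sets, and the probe set lies in the brightest of the 5 groups, whose median change was 0.28. Without calorie restricted replicates 3 and 5 the change was 2.05 (limma adjusted p = 0.00265), and under quantile normalization it was 1.73 (limma adjusted p = 0.00301). With RNA quality as a covariate it was 1.99 (limma adjusted p = 0.00386). Adding spike-in signal as a second covariate lowered it to 0.77 ± 0.30 (SE), short of the threshold (limma adjusted p = 0.432). Both covariates account for 0.85 of the variance of diet (R2), and 0 of 7453 probe sets passed there. From the fit with RNA quality alone the SE of Sod1 went from 0.26 to 0.30 and that of Gpx1 from 0.18 to 0.36. Within each diet Sod1 and spike-in signal shared their highest and lowest arrays, with a different order between. These were replicates 1 and 3 of control mice and 2 and 4 of calorie restricted mice. Before median subtraction the diets differed by 2.02 in log2 Sod1 signal, and by 1.92 in log2 spike-in signal. How far Sod1 follows spike-in signal rather than diet was not tested.

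Sod2 encodes the dismutase of the mitochondrial matrix. Its signal was 341, 510, 455, 546 and 1195 in calorie restricted replicates 1 to 5, against 402, 267, 409, 457 and 373 in control replicates 1 to 5. Replicate 5 of the calorie restricted mice was far above all other arrays, replicates 2 and 4 lay above every control array, and replicates 1 and 3 lay within the control range. Relative to the median change Sod2 had 0.71 ± 0.30 (SE, 95% interval 0.055 to 1.37), and it did not pass (limma adjusted p = 0.224). Calorie restricted replicate 5 alone carried much of this value, which was 0.41 without it (limma adjusted p = 0.397) and 0.79 without replicate 3 (limma adjusted p = 0.243). Leaving out both gave 0.39 (limma adjusted p = 0.451), and adding RNA quality to the fit gave 0.19 (limma adjusted p = 0.882).

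Sod3 encodes the secreted dismutase, which binds heparan sulfate around cells and vessel walls. Signals were 373, 399, 345, 364 and 209.6 in calorie restricted replicates 1 to 5, against 509, 714, 800.3, 545 and 436 in control replicates 1 to 5. All calorie restricted arrays lay below all control arrays, with replicate 5 the lowest, and the gap between the groups was narrow. The calorie restricted mean was 338 ± 74.4, against a control mean of 601 ± 151 (SD, n = 5 each). The relative change was -0.67 ± 0.24 (SE, 95% interval -1.19 to -0.16), 1.60-fold lower, with a limma adjusted p of 0.0433. This call was close to the threshold and depended on single arrays. It was lost without control replicates 1, 2, 3 or 4, with changes of -0.73, -0.61, -0.56 and -0.70 (limma adjusted p = 0.0699, 0.104, 0.106 and 0.0822). Leaving out calorie restricted replicates 3, 4 or 5 also ended it, with changes of -0.68, -0.70 and -0.54 (limma adjusted p = 0.0768, 0.0663 and 0.0513). Without replicates 3 and 5 together it was -0.52 (limma adjusted p = 0.0831). With RNA quality as a covariate the value was -0.40 (limma adjusted p = 0.277). Quantile normalization gave -0.59 and no call either (limma adjusted p = 0.0992).

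Vascular smooth muscle cells and pericytes form the vessel wall. Of 8 of their markers on the array 5 were tested, 4 did not pass and 1 fell, where 7.74% of all tested probe sets were called lower. The marker that fell was Rgs5, a pericyte regulator of G protein signalling, at -1.18 (limma adjusted p = 0.0176). Their summed signal was 1148 to 1992 in calorie restricted and 1337 to 3287 in control mice, which overlap, and Myh11, Pdgfrb and Cnn1 lay below the filter. The part of these cells in the Sod3 result was not tested.

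**Figure D2:**
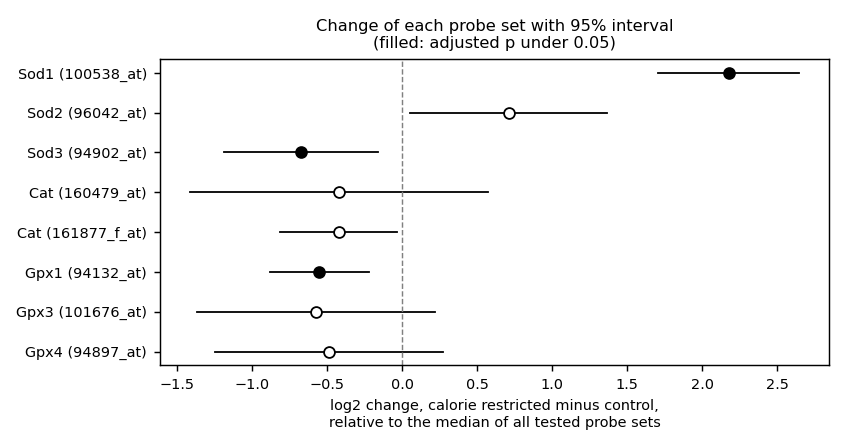
Log2 change of each of the 8 probe sets, calorie restricted minus control, relative to the median change of the 7453 tested probe sets. Lines are 95% intervals of this relative change from the limma fit. Filled points passed at an adjusted p under 0.05, which tests the change before the median was subtracted, so fill and interval can differ. Sod1 stands at 2.18, apart from the other probe sets, which lie between -0.67 and 0.71.

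Catalase was measured by 2 probe sets, and both had lower means in calorie restricted mice without passing the test. In the first, signals were 68.1, 134, 184, 163 and 604 in calorie restricted replicates 1 to 5, against 241, 298, 220.3, 249 and 307 in control replicates 1 to 5. Calorie restricted replicates 1 to 4 lay below every control array, and replicate 5 lay above every control array. Its relative change was -0.42 ± 0.46 (SE, 95% interval -1.42 to 0.57; limma adjusted p = 0.406). Replicates 5 and 1 decided this value: it was -0.89 without calorie restricted replicate 5 and -0.079 without replicate 1 (limma adjusted p = 0.0533 and 0.710). Without replicates 3 and 5 together it was -1.08 and passed (limma adjusted p = 0.0407). Adding RNA quality to the fit gave -1.49, also a call (limma adjusted p = 0.0439).

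In the second, signals were 905, 1058, 886, 899 and 589 in calorie restricted replicates 1 to 5, against 1266, 1472, 1220, 1232 and 1185 in control replicates 1 to 5. Here the groups did not overlap, and replicate 5, the highest calorie restricted array in the first probe set, was the lowest. The relative change was -0.42 ± 0.18 (SE, 95% interval -0.81 to -0.034; limma adjusted p = 0.0544). It passed without calorie restricted replicate 2, at -0.49 (limma adjusted p = 0.0351), and with array weights, at -0.37 (limma adjusted p = 0.0365). Without replicates 3 and 5 it was -0.31 (limma adjusted p = 0.0751). Its identifier carries an f, which means that the probes can match several related transcripts. Averaged over both probe sets, Cat had -0.42 ± 0.22 (SE; limma adjusted p = 0.101).

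Gpx1 encodes the most abundant glutathione peroxidase, found in cytosol and mitochondria. Its signal was 684, 716, 660, 550.3 and 595 in calorie restricted replicates 1 to 5, against 951, 1029, 989, 1165 and 1088 in control replicates 1 to 5. All calorie restricted arrays lay below all control arrays, and the spread within each diet was the smallest of the 7 genes on the log2 scale. The calorie restricted mean was 641 ± 67.4, against a control mean of 1044 ± 84.4 (SD, n = 5 each). The relative change was -0.55 ± 0.15 (SE, 95% interval -0.88 to -0.22), 1.47-fold lower, with a limma adjusted p of 0.0177. Without calorie restricted replicates 3 and 5 it was -0.58 and passed (limma adjusted p = 0.0197). The size held with RNA quality as a covariate, at -0.56, but the call did not (limma adjusted p = 0.0555). Leaving out control replicate 4 gave -0.51 and ended the call (limma adjusted p = 0.0503).

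Gpx3 encodes the secreted peroxidase. Signals were 268, 232, 94.5, 405 and 254 in calorie restricted replicates 1 to 5, against 226, 333, 513, 445 and 442 in control replicates 1 to 5. Only calorie restricted replicate 3 lay outside the control range, below it. The relative change was -0.58 ± 0.36 (SE, 95% interval -1.37 to 0.22) and did not pass (limma adjusted p = 0.189). Calorie restricted replicate 3 alone carried much of this value, which was -0.25 without it (limma adjusted p = 0.369) and -0.64 without replicate 5 (limma adjusted p = 0.201).

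Gpx4 encodes the peroxidase of membrane lipids, known to hold back ferroptosis, a form of cell death driven by lipid peroxides. Its signal was 1224, 1279, 557, 1087 and 337 in calorie restricted replicates 1 to 5, against 1524, 889.8, 1448, 1201 and 1257 in control replicates 1 to 5. Calorie restricted replicates 1, 2 and 4 lay within the control range, and replicates 3 and 5, with the largest 3' to 5' differences, lay below it. On all arrays the relative change was -0.49 ± 0.35 (SE, 95% interval -1.25 to 0.27; limma adjusted p = 0.225). Without calorie restricted replicate 5 alone it was -0.20 (limma adjusted p = 0.402). Its direction turned without replicates 3 and 5, at 0.053 (limma adjusted p = 0.858), and when RNA quality entered the fit, at 0.33 (limma adjusted p = 0.541).

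**Figure D3:**
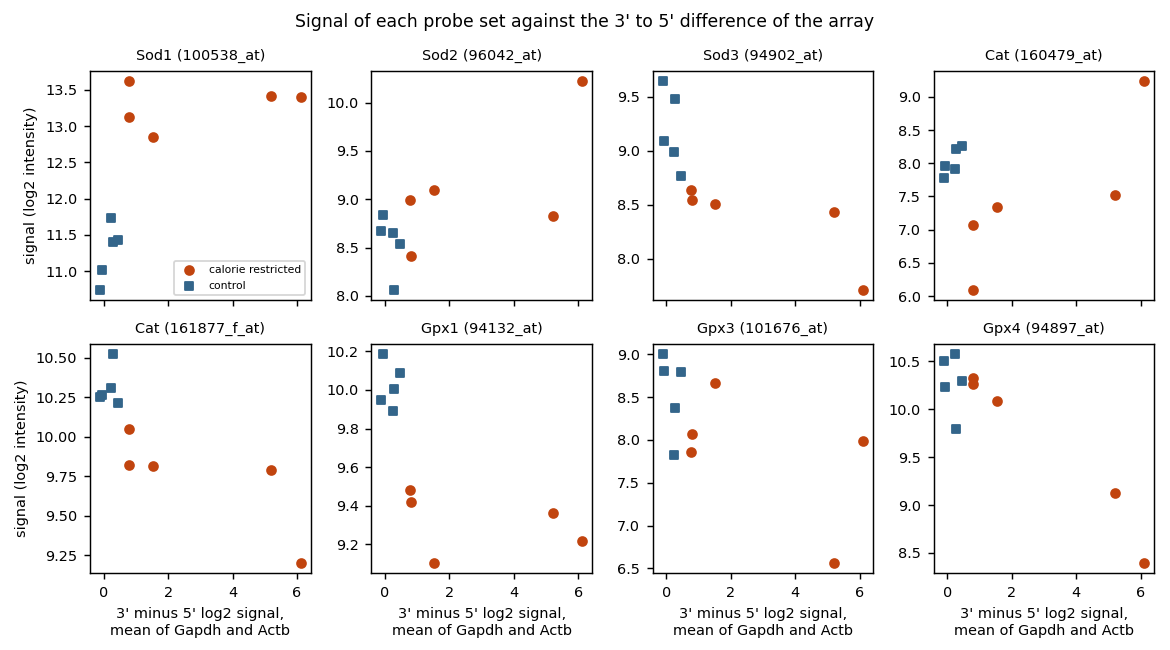
Log2 signal of each of the 8 probe sets against the 3' minus 5' log2 difference of the same array, averaged over Gapdh and Actb, with calorie restricted mice as circles and control mice as squares. In Gpx4 the calorie restricted arrays at 5.20 and 6.11 are the lowest, while in Sod1 and Gpx1 those arrays lie within the range of the other calorie restricted arrays.

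The log2 SD was larger in calorie restricted than in control mice for 7 of the 8 probe sets, Sod1 being the exception, and for 76.0% of all tested probe sets. Replicate 5 was the highest or lowest calorie restricted array for 5 of the 8, the highest for Sod2 and the first Cat probe set and the lowest for Sod3, the second Cat probe set and Gpx4. Across all tested probe sets it was so for 63.9%.

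A difference of 2 log2 signals within an array does not change when the whole array is multiplied by 1 factor. It can still change with shifts that depend on signal level, such as the 0.28 and -0.26 of the brightest and dimmest groups. Under quantile normalization the changes were 1.73 for Sod1 and -0.60 for Gpx1. Sod1 minus Gpx1 averaged 3.96 ± 0.22 on calorie restricted arrays, against 1.23 ± 0.44 on control arrays (SD, n = 5 each). It ran from 3.71 to 4.18 in calorie restricted and from 0.79 to 1.84 in control mice, without overlap. The diets thus differed by 2.73 in this within-array difference, which shows an unequal change of the 2 probe sets and not their relative abundance. Sod1 minus each probe set of Sod3, Cat, Gpx3 and Gpx4 also did not overlap, with differences between diets of 2.60 to 2.85. This holds for most probe sets, since Sod1 minus the probe set did not overlap for 87.4% of the other 7452 tested, so it describes Sod1 and not these partners. Sod1 minus Sod2 differed by 1.47 and did overlap, at 3.18 to 4.71 in calorie restricted and 2.06 to 3.33 in control mice.

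Blood and microglia also express these enzymes, and their markers were read on the same arrays. Red blood cells are rich in catalase and GPX1. Of their 6 markers on the array 4 were tested, and 1 fell, the beta globin transcript Hbb-b2 at -1.46 (limma adjusted p = 0.0154), while the alpha globin Hba-a1 had -0.19 (limma adjusted p = 0.583). The summed signal was 4184 to 8766 in calorie restricted and 4707 to 16165 in control mice, and Slc4a1 and Epb42 lay below the filter. For microglia 2 of 8 tested markers fell and 0 rose, with sums of 4988 to 9111 in calorie restricted and 7248 to 10698 in control mice. Their summed signals overlapped between the diets. For astrocytes 1 of 10 tested markers rose and 4 fell, and the sums, 26233 to 32796 in calorie restricted and 18477 to 24917 in control mice, did not overlap. Aldoc and Gja1, which did not pass, made up most of these sums. Their signals were 12971 ± 3286 and 7419 ± 5736 in calorie restricted mice, against 9576 ± 1261 and 3750 ± 385 in control mice (SD, n = 5 each). A further probe set of Gja1 lay on the other side of 0 without a call. The astrocyte marker that rose was Glul, glutamine synthetase, and its further probe set passed in the opposite direction. Among the astrocyte falls, Fgfr3 and Atp1b2 had calorie restricted mean log2 signals of 5.94 and 6.80, under the lowest mean tested of 6.85. They passed the filter only through control mice and had to differ to be tested, so their calls do not support a fall of the list. Oligodendrocyte markers gave 0 rises and 3 falls in 8, and hippocampal neuron markers 0 and 2 in 10. Endothelial markers gave 0 and 0 in 4, and choroid plexus and ependymal markers 0 and 2 in 5. Over all tested probe sets 4.11% were called higher and 7.74% lower. The oligodendrocyte fall of Ugt8a has the same limit as Fgfr3, with a calorie restricted mean log2 signal of 6.16. The oligodendrocyte gene Mobp counted as not passed by its brightest probe set, at 0.87, while its 3 further probe sets passed on the other side of 0. The part of these cells in the enzyme results was not tested.

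Genes around these enzymes were taken from 10 lists, of 118 genes, covering cofactors, partner systems, sources and regulators. Of these genes 86 had a probe set of their own and 68 were tested. Among them 4 rose, 3 fell and 61 did not pass, so 10.3% passed, near the 11.8% of all tested probe sets.

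SOD1 and SOD3 need copper. Among 9 tested genes of copper handling 2 rose and 0 fell. Commd1, which takes part in copper export, had a signal of 279 ± 95.8 in calorie restricted mice, against 88.2 ± 35.9 in control mice (SD, n = 5 each), a relative change of 1.86 ± 0.36 (SE; limma adjusted p = 0.0173). In control mice its mean log2 signal of 6.36 lay under the lowest mean tested, so Commd1 entered the test only through the calorie restricted group, where it is high. It had to differ to be tested, so neither its size nor its call supports a change of the list. The metallothionein Mt2, which binds zinc and copper, rose by 0.81 ± 0.19 (SE; limma adjusted p = 0.0433), and under quantile normalization it had 0.28 and did not pass. Ccs, the chaperone that loads copper into SOD1, had -0.098 ± 0.21 (SE; limma adjusted p = 0.437). The identifier of its probe set carries an r, which marks sets for which some probe selection rules were dropped. Atox1, a copper chaperone for export pumps, had 0.56 ± 0.20 (SE; limma adjusted p = 0.183).

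Selenium supply and other selenoproteins share the selenocysteine machinery with GPX1, GPX3 and GPX4. The 2 tested genes of selenium and selenoprotein synthesis, Sephs2 and Pstk, both missed the threshold, at 0.22 and 0.79 (limma adjusted p = 0.883 and 0.479). Of 10 other selenoprotein genes 1 rose and 0 fell. This was Dio2, the deiodinase that activates thyroid hormone, at 1.23 ± 0.29 (SE; limma adjusted p = 0.0366). Selenow, a small selenoprotein, had -0.84 ± 0.31 and missed the threshold (limma adjusted p = 0.0524). Its calorie restricted mean log2 signal of 6.49 lay under the lowest mean tested, 6.85, so it entered the test only through control mice. Among other glutathione peroxidases Gpx2, the epithelial form, fell by 0.59 ± 0.21 (SE; limma adjusted p = 0.0416), with a signal of 208 ± 33.1 in calorie restricted mice, against 349.7 ± 66.8 in control mice (SD, n = 5 each). Gpx5 had 0.19 and did not pass, and Gpx7 lay below the filter.

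Glutathione and NADPH feed the peroxidases, and 0 of 5 genes of glutathione synthesis and recycling and 0 of 8 genes of NADPH supply passed in limma. At an unadjusted p of 0.05 these held 1 and 2 genes, where 31.6% of all tested probe sets were past that level. Gclc, the catalytic subunit of the first step of glutathione synthesis, had 0.42 ± 0.25 and Gsr, which reduces oxidised glutathione, had 0.020 ± 0.23 (SE). Peroxiredoxins and thioredoxins, the parallel route for peroxide removal, gave 1 rise and 1 fall in 8. Txn1, the cytosolic thioredoxin, rose by 1.09 ± 0.24 (SE; limma adjusted p = 0.0283). Srxn1, which repairs overoxidised peroxiredoxins, changed by -0.81 ± 0.21 (SE; limma adjusted p = 0.0180), but a further probe set of this gene lay on the other side of 0 without a call, and their average was -0.22 (limma adjusted p = 0.218).

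Peroxisome biogenesis genes, which build the organelle that houses catalase, gave 0 calls in 10, and sources of superoxide and peroxide gave 0 in 6. At an unadjusted p of 0.05 these lists held 2 and 4 genes, where 31.6% of all tested probe sets were past that level. For the sources, 7 further genes lay below the filter. The summed signal of their 13 genes on the array was 7960 to 11357 in calorie restricted and 11567 to 13765 in control mice, without overlap. Rac1, which did not pass, gave most of it, with means of 7293 and 9394. Cyba, a subunit of the NADPH oxidase of phagocytes, had -0.85 ± 0.36 (SE; limma adjusted p = 0.0861), and a further probe set of this gene lay on the other side of 0 without a call. Of 8 regulators 1 fell, Foxo4, a forkhead factor of the insulin pathway, at -0.62 ± 0.21 (SE; limma adjusted p = 0.0366). Nfe2l2, which encodes NRF2, had -0.16 ± 0.21 and Foxo3, known to activate Sod2 and Cat, had 0.74 ± 0.21 (SE; limma adjusted p = 0.315 and 0.0847).

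Leaving out single arrays gave 10 fits. Commd1, which had to differ to be tested, passed in 10, which says nothing of its stability. Srxn1 passed in 8, failing without control replicates 2 and 4. Txn1 passed in 6, failing without control replicates 2, 3 and 4 and calorie restricted replicate 3. Dio2 passed in 4, Foxo4 and Mt2 in 3 and Gpx2 in 2, and each of these 4 genes failed without any single control array and without calorie restricted replicate 3. Foxo4 and Mt2 failed without calorie restricted replicate 4 as well, and Gpx2 without replicates 1 and 2. Without calorie restricted replicates 3 and 5 together 3 of the 7 passed, and with RNA quality as a covariate 0 did.

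**Figure D4:**
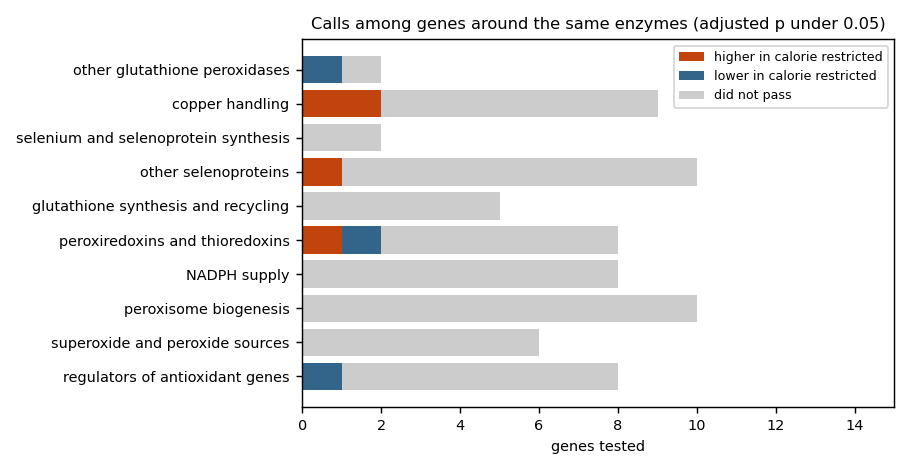
Number of genes tested in each of the 10 lists around the enzymes, split into higher in calorie restricted mice, lower, and not past an adjusted p of 0.05. No list has more than 2 calls, and the longest bars hold 10 genes.

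The genes most like each called enzyme transcript were found by the root mean square difference of log2 signals over the 10 arrays after each probe set's mean was taken off. For Sod1 they were Tmsb10, an actin-binding thymosin, at 0.35, and Nipsnap2, a mitochondrial protein, at 0.36. For Gpx1 they were Gtpbp1, a GTP-binding protein, at 0.12, and Acads, the short-chain acyl-CoA dehydrogenase, at 0.13. The probe sets of both carry an r in their identifier, which marks sets for which some probe selection rules were dropped. For Sod3 they were the transcript listed as U90926 at 0.14 and Casp9, an initiator caspase, at 0.17. Casp9 itself did not pass, with a relative change of -0.53 (limma adjusted p = 0.0795), while U90926 passed at -0.75 (limma adjusted p = 0.0205). Part of this likeness is the diet difference itself, since the called probe sets were compared over both diets.

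Settings other than the main one kept the direction of Sod1 and Gpx1 in all 21 alternatives each, with ranges of 0.77 to 2.29 and -0.64 to -0.48. Sod1 passed in 20 of them and Gpx1 in 16. For Sod3 the direction held in all 21 and the call in 8, with values of -0.79 to -0.094. When each array was centred on its median, Sod1 passed (limma adjusted p = 6.2e-04), and Gpx1 and Sod3 did not (limma adjusted p = 0.0567 and 0.0861). The median change over tested probe sets was then 0.062, and these p-values too test the change before its subtraction.

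**Figure D5:**
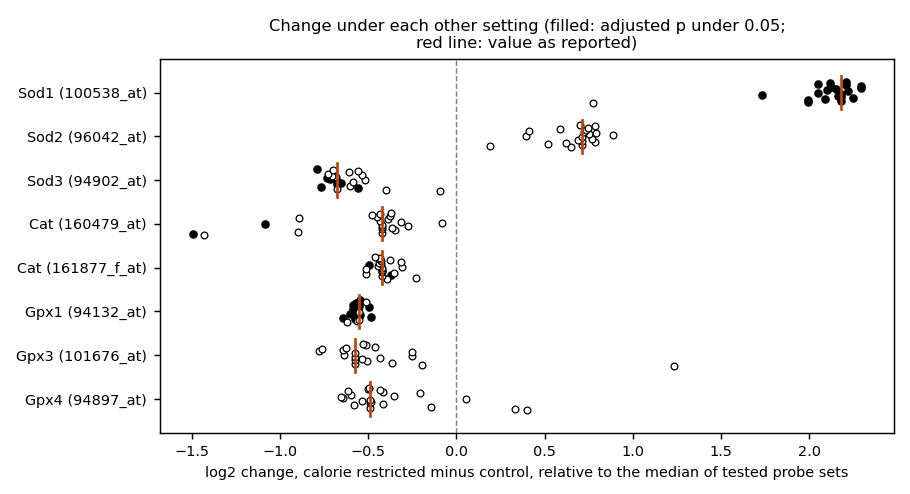
Log2 change of each of the 8 probe sets, calorie restricted minus control, relative to the median of tested probe sets, under each alternative setting; points filled where the adjusted p was under 0.05 and red lines at the reported value. Sod1 stays at 0.77 or above, Gpx1 stays within -0.64 to -0.48, and Gpx3 and Gpx4 have points on both sides of 0.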

How the data were processed

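Hippocampal RNA of 10 mice was measured on 10 Affymetrix arrays, labelled as biotinylated cRNA per the labels' protocols. The deposited table holds 1 intensity per probe set and array on a linear scale, for 12488 probe sets. MAS5 is the tool the authors used to make them, per the submitters' processing notes. Neither its version nor its settings are stated there. The mean of each array without the lowest and highest 2% of its values was 500.2 to 500.4, so arrays had been scaled to a common level. Background and detection calls were not analysed here, and the number of arrays limits the precision.

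A floor of 1 was applied, which touched 41 of 124880 values, before the log2 step. Tests did not use the 66 control probe sets. Of the other 12422, the 7453 whose mean log2 signal reached the 40th percentile were tested. Gene names came from the platform annotation: 10833 probe sets had 1 symbol, 396 several and 1193 none, and 10817 were matched to RefSeq by gene number. The comparison of diets used limma 3.58.1 and R 4.3.3 (lmFit, eBayes with trend, no other term, Benjamini-Hochberg adjustment), and array measures with an exact permutation test over all 252 splits. The fit was tested on simulated data, drawn for both diets with the SD of the control arrays. The real log2 SD was larger in calorie restricted mice for 76.0% of tested probe sets, so the simulation does not cover this spread.

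Genes are named by rule: the 7 enzymes, the called genes of each list (up to 4, by the probe set with the highest mean), and the 2 most similar genes of each called enzyme. Ccs, Atox1, Sephs2, Pstk, Selenow, Gpx5, Gclc, Gsr, Cyba, Rac1, Nfe2l2, Foxo3 and the named markers were picked outside it, after values were seen. The enzymes, lists and settings were chosen with earlier results of these data known. Alternatives were 12 other settings and 10 fits that each left out 1 array. Promoter windows are from RefSeq, and no other genome positions are given because no source names a build for the probe sets.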

Additional observations from a re-analysis of the deposited data

Results flagged for a closer look

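A sample was set apart when the gap to its nearest neighbour was over 0.71 of the range of its group of 5. In 22 groups checked, covering the 8 probe sets and 3 array measures in each diet, 4 arrays were set apart, and chance sets apart about 1 group in 20. Calorie restricted replicate 5 was set apart 3 times: its signal was 1195 for Sod2, the highest of its group, 209.6 for Sod3, the lowest, and 604 for the first Cat probe set, the highest. That array also had the largest 3' to 5' difference, 6.11 on the log2 scale, and the part of RNA quality in these values was not tested. Control replicate 2 was set apart for the second Cat probe set, where its signal of 1472 was the highest of its group.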

How the results depend on the processing

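Among the 8 probe sets, Sod1, Sod2, Sod3, Gpx1 and both Cat probe sets did not change sign under any of their alternatives. Gpx4 turned to 0.33 with RNA quality as a covariate, to 0.40 when spike-in signal was added as well and to 0.053 without calorie restricted replicates 3 and 5. With both covariates Gpx3 turned to 1.23 and Txn1 to -0.092. Calls among the 8 went from 3 to 1 when arrays were centred on their median and to 0 with both covariates, and ran from 1 to 4 with single arrays left out, with 1 without control replicate 4. Over all probe sets 883 passed (306 higher, 577 lower), against 333 with RNA quality as a covariate and 0 in limma with both covariates, where 907 had an unadjusted p under 0.05 and 0 of the 8 did. With single arrays left out the count ran from 268 to 1278, and it moved by over 1.5 times without control replicate 1 (414), 2 (268), 3 (272), 4 (289) or 5 (546) and without calorie restricted replicate 3 (405) or 4 (566). The cause of these shifts was not tested, and the fit with both covariates hardly separates diet from them. Scaling moved the balance of directions: 575 were higher and 266 lower after median centring, and 321 and 282 under quantile normalization. With single arrays left out the 3' to 5' difference between diets ran from 1.92 to 3.25, that of spike-in signal from 1.77 to 2.09 and that of median log2 signal from -0.40 to -0.29. The fit with replicate number as a block passed 540 probe sets, and under it Gpx1 missed the threshold (limma adjusted p = 0.0549) while Sod1 and Sod3 passed. Same-numbered arrays had correlations of deviations from -0.076 to 0.17, and 1 of 5 numbers correlated best with itself. With so few arrays this cannot decide whether same-numbered samples share a batch or other link. The labels link them only by number, so no pairing was used.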
